A study of Mus musculus with 6 samples.

Results

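The 36 genes of mitosis and the G2/M transition were followed in TM4 cells, a mouse testis line used in place of primary Sertoli cells, which nurse developing germ cells. The genes were chosen by name, as known actors of late cell cycle, and not by a measured value, though earlier results of these data were known. All 36 of 36 were found among the 55414 gene identifiers of the deposited table. RNA sequencing covered 3 libraries of cells given the agent labelled VC and 3 libraries of control cells, with no genotype, dose, exposure time or passage stated for either. The series title names vitamin C, the sample titles say VC, and the agent label and design text say valine, so which agent was given cannot be told from the labels and the name VC is kept. Nothing states that the replicates were separate cultures, and p-values then measure only the spread between these libraries, which may be technical.

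Entry into mitosis is set off when cyclin B activates the kinase CDK1, after CDC25 phosphatases strip the phosphates that hold it back. Chromosomes are then condensed, attached to the spindle through kinetochores and held by the spindle checkpoint until the anaphase-promoting complex, switched on by CDC20, marks cyclin B and securin for destruction. Most of these genes are transcribed late in the cycle, through FOXM1 and the B-MYB-MuvB complex, and are held down in resting cells by the DREAM complex. MuvB, the core of both complexes, binds the cell cycle genes homology region (CHR), which usually lies close to the start of transcription, with CCAAT boxes bound by NF-Y upstream. In the testis, Sertoli cells divide in fetal and early postnatal life and leave the cycle around puberty, whereas TM4 cells keep dividing in culture.

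The promoters of the members are shown first because many of them, though not all, hold this element. RefSeq promoter windows of 300 bases, 250 before the annotated start and 50 after it on build GRCm38.p6, were at hand for 29 of the 36 genes; Ccna2, Cdc25c, Foxm1, Tpx2, Aurkb, Incenp and Kif20a had no entry. Below are the 120 bases that end just before the start in 7 members, read 5′ to 3′ in the direction of the gene. Capitals mark the CHR core TTTGAA, its variant TTTAAA and the NF-Y box CCAAT, each on either strand, so that TTCAAA and ATTGG are the same elements on the other strand.
Ccnb1 (chr13:100786487-100786606, minus strand): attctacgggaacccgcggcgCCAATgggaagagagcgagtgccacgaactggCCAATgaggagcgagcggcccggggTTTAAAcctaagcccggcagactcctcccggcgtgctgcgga
Cdk1 (chr10:69352913-69353032, minus strand): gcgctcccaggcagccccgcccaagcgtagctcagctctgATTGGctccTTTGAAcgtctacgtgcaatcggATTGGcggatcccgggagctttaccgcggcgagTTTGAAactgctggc
Cdc20 (chr4:118437344-118437463, minus strand): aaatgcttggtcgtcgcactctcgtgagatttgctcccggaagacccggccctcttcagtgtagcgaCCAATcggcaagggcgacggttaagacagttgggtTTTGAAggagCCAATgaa
Ube2c (chr2:164769809-164769928, plus strand): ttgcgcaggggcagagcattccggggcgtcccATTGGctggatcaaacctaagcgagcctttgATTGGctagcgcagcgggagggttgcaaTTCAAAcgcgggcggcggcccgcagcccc
Kif11 (chr19:37376262-37376381, plus strand): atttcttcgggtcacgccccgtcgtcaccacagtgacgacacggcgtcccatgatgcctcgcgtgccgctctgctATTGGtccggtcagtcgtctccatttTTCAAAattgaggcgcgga
Cenpa (chr5:30666766-30666885, plus strand): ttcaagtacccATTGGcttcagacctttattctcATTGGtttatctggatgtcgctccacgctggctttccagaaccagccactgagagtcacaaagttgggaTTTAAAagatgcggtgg
Top2a (chr11:99024190-99024309, minus strand): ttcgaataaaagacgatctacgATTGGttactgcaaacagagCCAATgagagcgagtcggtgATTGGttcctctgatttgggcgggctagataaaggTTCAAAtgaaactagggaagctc

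TTTGAA was present in the window of 21 of the 29 members, or 72.4%, against 14.3% of the 9000 tested genes with a window and 20.2% of all 27025 genes in the promoter table. TTTAAA was present in 9 of 29 members, or 31.0%, against 10.8% of tested genes, and CCAAT in 22 of 29, or 75.9%, against 43.9%. A CHR core or its variant together with CCAAT was found in 20 of 29 members, or 69.0%, against 9.51% of tested genes. In 19 members a TTTGAA match began within 50 bases of the start, and no CHR match overlapped a CCAAT box in these windows. Nuf2, Nusap1, Mad2l1, Bub1 and Cdc25b had neither TTTGAA nor TTTAAA in their windows. By role, TTTGAA was found in 5 of 5 cytokinesis genes, 4 of 5 spindle genes, 5 of 7 genes of cyclin and kinase control, 5 of 10 kinetochore genes and 2 of 2 chromosome genes with a window. For the G1/S and DNA replication genes, listed for comparison, it was 8 of 40. Other mitotic genes held it too: 15 of 30 other spindle genes, 13 of 35 other kinetochore and centromere genes, and 8 of 16 condensin, cohesin and separase genes. It was in 3 of 8 genes of mitotic entry, 3 of 9 DREAM and B-MYB subunits, 3 of 16 anaphase-promoting complex genes and 0 of 15 brake genes. These are matches of letters and do not show binding.

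**Figure D1:**
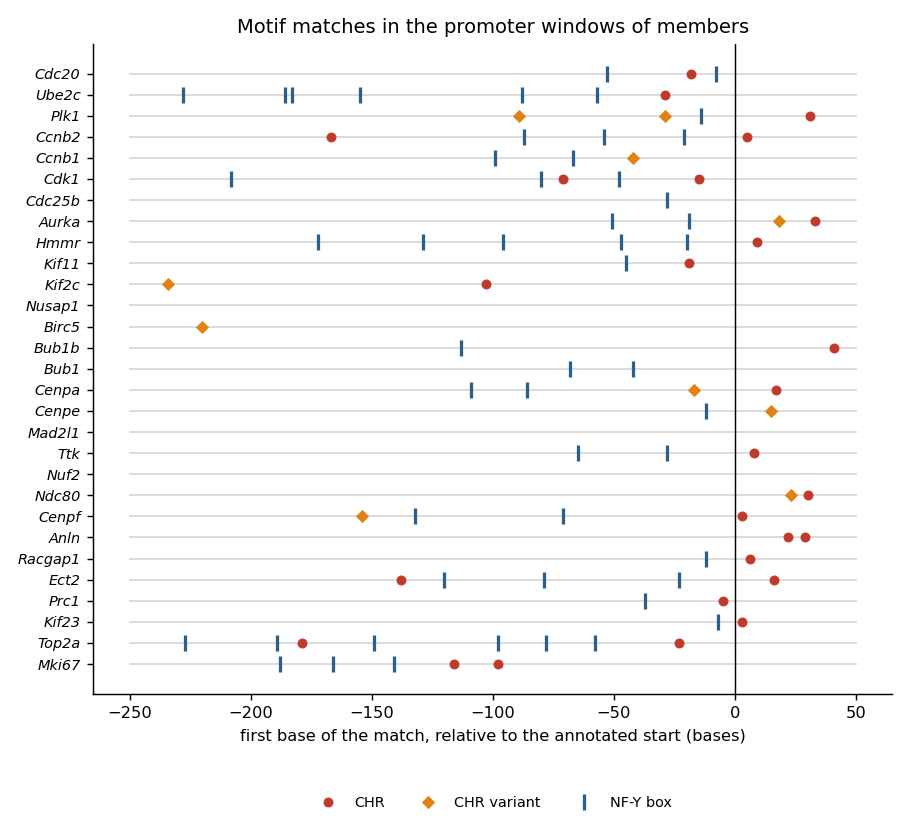
Matches to TTTGAA (CHR, circles), TTTAAA (CHR variant, diamonds) and CCAAT (NF-Y box, bars) in the promoter windows of 29 members; the horizontal axis is the first base of the match relative to the annotated start, in bases. CHR matches gather around the start in 19 members, with NF-Y boxes mostly upstream of them.

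The deposited values are on a transcripts-per-million-like scale, corrected for gene length, so that levels of different genes can be compared. All 36 members passed the expression filter of at least 1 in at least 3 libraries, in VC and control cells alike, and 26 of them lay above the 80th percentile of level among the 13972 genes tested. Cdc20, the activator of the anaphase-promoting complex, was the most abundant member, at 240.6 ± 4.001 in VC cells and 248 ± 5.32 in control cells (mean ± SD, n = 3 per group), at percentile 96.0. Top2a, the topoisomerase that untangles sister chromatids, followed with 189.8 ± 2.77 in VC cells and 188 ± 11.3 in control cells. Cdc25c, one of the CDC25 phosphatases, was lowest, at 19.2 ± 1.14 in VC cells and 20.6 ± 2.13 in control cells, at percentile 56.7. Reads recovered from the values numbered between 691 (Cdc25c) and 14126 (Top2a) per member and library.

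**Figure D2:**
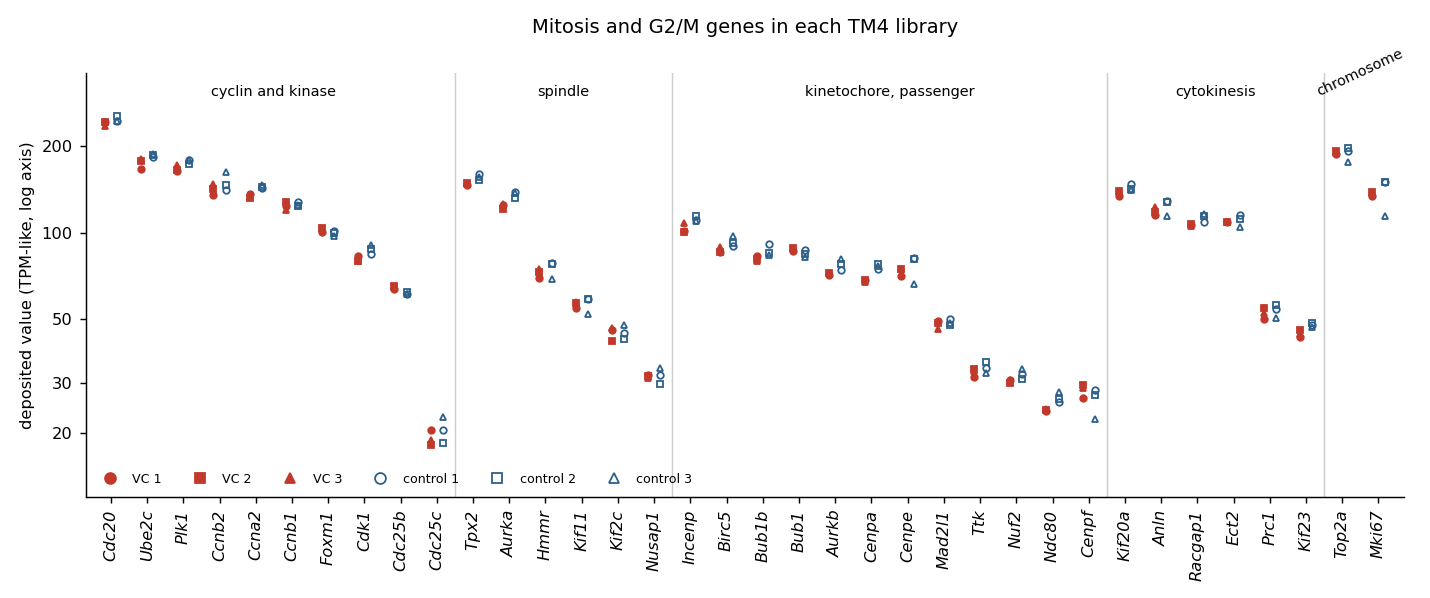
Deposited value of each member in each library on a log axis, grouped by role, with VC libraries as filled and control libraries as open symbols (circle, square and triangle for replicates 1, 2 and 3). Most groups lie close together or overlap, and the triangle of control replicate 3 stands below the other controls for Mki67, Cenpf and Cenpe.

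The libraries held 20408425 to 22316857 recovered reads each, and the deposited columns summed to 966031 to 983802 in VC and 1007535 to 1058206 in control. Of 11 Sertoli markers 5 passed the filter and 4 (Wt1, Fshr, Dmrt1 and Shbg) were listed at 0 in all 6 libraries. Gata4 was at 21.4 to 22.3 in VC cells and 18.6 to 19.8 in control cells, and Sox9 at 3.23 to 3.96 in VC cells and 2.83 to 3.28 in control cells. Inha was at 1.67 to 3.87 in VC and 1.05 to 2.94 in control, Rhox5 at 1.02 to 1.60 in VC and 0.988 to 1.69 in control, and Amh at 0.365 to 1.17 in VC and 0.865 to 1.05 in control. Germ cell markers, 12 in number, summed to 2.23 to 2.74 in VC and 1.49 to 2.31 in control, with Ddx4, Stra8, Zbtb16, Kit, Sall4 and Tnp1 at 0 throughout. Leydig (2.74 to 3.53 in VC, 2.34 to 3.31 in control) and endothelial markers (3.46 to 4.09 in VC, 2.98 to 3.53 in control) were equally scarce, and the macrophage sum (61.0 to 71.3 in VC, 55.7 to 65.8 in control) was nearly all Cd14. Transcripts of the 13 protein-coding genes of the mitochondrial genome, a sign of RNA quality, summed to 89870 to 95920 in VC and 99590 to 101600 in control. Of their log2 fold changes 12 of 13 were below 0, with a median of -0.117. The part of these transcripts in the results below was not tested.

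The comparison of VC with control asked whether the agent altered the mitotic programme. No member passed limma's adjusted threshold of 0.05, where 96 of 13972 genes, or 0.687%, did. Differences in log2(value + 1), VC minus control, called log2 fold changes here, ran from -0.158 (Cenpa) to 0.123 (Cenpf), and 31 of 36 were below 0, against 46.3% of all genes tested. Their median was -0.060, against 0.012 for all genes. Of the 5491 tested genes in the members' range of level, 52.0% were below 0, with a median of -0.004. With libraries scaled to equal totals the member median turned to 0.012 and 17 of 36 were below 0, while the median of all genes went to 0.078; relative to all genes the members stood at -0.072 as deposited and -0.066 with equal totals.

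At an unadjusted limma p under 0.05, 11 members were lower in VC, where 8.20% of all genes were, and 0 were higher, where 9.05% of all genes were. Of the 5491 tested genes in the members' range of level, 660 were lower and 583 higher at that p. With equal totals the direction of the member counts turned, to 0 lower and 3 higher. The count lower in VC was 4 by limma-voom on recovered reads, after quantile normalization and without the variance trend. Leaving out VC replicate 1, 2 or 3 gave 4, 5 or 6 such members, and leaving out control replicate 1, 2 or 3 gave 8, 6 or 13. The share of all genes at an unadjusted p under 0.05 was not counted in these alternatives, equal totals included. A change in the members can therefore not be told apart from a change in the test. No member passed the adjusted threshold in any of 17 alternative fits, of which the smallest adjusted p was 0.0548 for Cenpa with library weights. In 17 members, or 47.2%, all VC values lay below all control values, against 11.6% of all genes, and in 1 (Cdc25b) all lay above, against 13.9%. Among the 5491 genes in the members' range of level, 914 had all VC values below and 812 had them above. With equal totals the member counts were 3 below (4.59% of all genes) and 4 above (25.8% of all genes). Of the members' separate 95% intervals on the deposited scaling, the lowest lower limit was -0.286 (Cdc25c, a ratio of 0.82) and the highest upper limit 0.339 (Cenpf, a ratio of 1.26). Other scalings shift them: the log2 fold change of Cenpf was 0.193 with equal totals, against 0.123 as deposited.

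Of the 96 genes called, 60 were higher and 36 lower in VC, and with equal totals 182 of 217 were higher. The count of 96 depended on the libraries used. It was 82 without control replicate 3, 1 without VC replicate 3 or control replicate 1, and 0 without VC replicate 1, VC replicate 2 or control replicate 2.

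**Figure D3:**
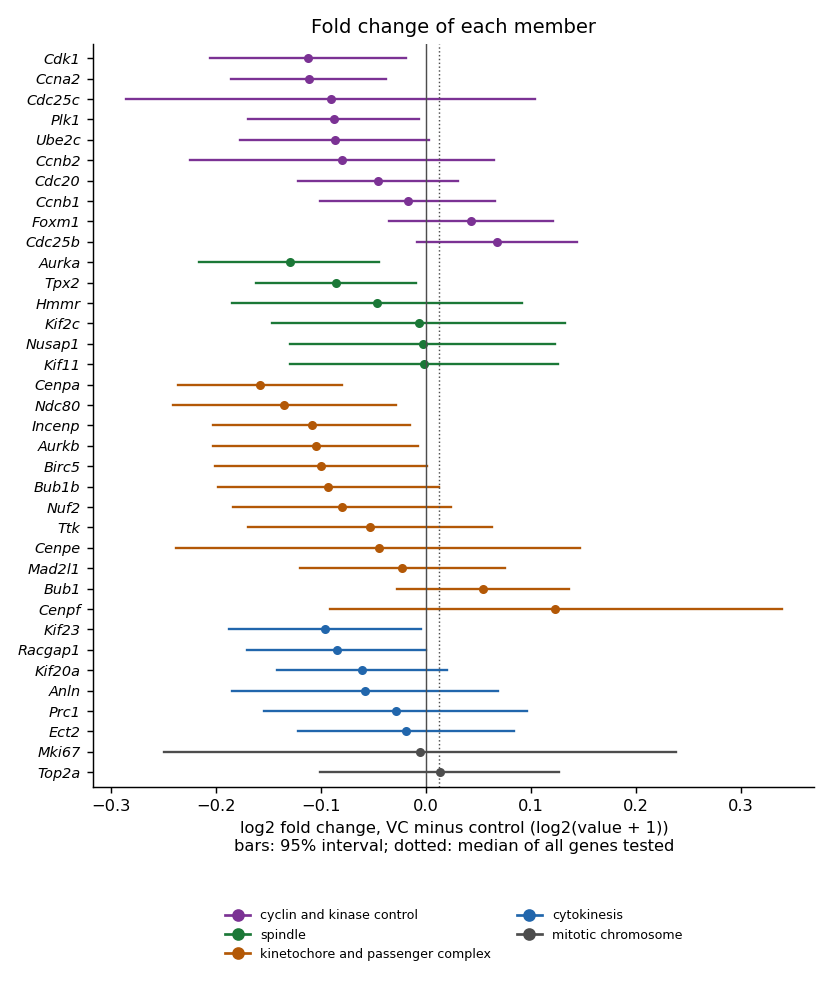
Log2 fold change of each member, VC minus control, with its 95% interval from limma, coloured by role; the dotted line is the median of all genes tested. Cenpa, at -0.158, lies farthest below 0 and Cenpf, at 0.123, farthest above, and most intervals span 0.

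Among the 10 genes of cyclin and kinase control the median log2 fold change was -0.084, with 8 below 0 and 0 called. The median was -0.011 with equal totals, -0.034 after quantile normalization, -0.038 without control replicate 3 and -0.052 without VC replicate 1. Ccnb1, cyclin B1, was at 124, 128 and 120.3 in VC and 128, 124 and 125 in control, so the groups overlapped; its log2 fold change was -0.017 (SE 0.0353, limma adjusted p = 0.838). Its partner Cdk1 was at 82.9, 79.7 and 79.8 in VC and 84.4, 87.4 and 90.6 in control. Each VC value of Cdk1 lay below each control value, by -0.113 on the log2 scale (SE 0.0394, limma adjusted p = 0.223) that did not pass. Ccna2, cyclin A2 of S phase and G2, showed the same order, at 137, 132 and 133 in VC and 143, 144 and 147 in control (log2 fold change -0.112, limma adjusted p = 0.151). Ccnb2, the second B-type cyclin, was at 136, 142 and 148 in VC and 141, 147 and 163 in control, and the spread of the control values exceeded the difference.

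Plk1, the polo-like kinase that drives mitotic entry and exit, was at 164, 165 and 172 in VC and 179, 173 and 179 in control (log2 fold change -0.088, limma adjusted p = 0.260). Cdc20 and Ube2c, the ubiquitin-conjugating enzyme of the anaphase-promoting complex, also had all VC values below the control values, at log2 fold changes of -0.046 and -0.087 that did not pass. The exceptions in direction were Cdc25b and Foxm1. Cdc25b, the phosphatase that starts CDK1 activation, was at 63.4, 65.3 and 64.8 in VC and 61.1, 62.2 and 61.3 in control, the single member with each VC value above each control value (log2 fold change 0.068, SE 0.0323, limma adjusted p = 0.340). Foxm1, the transcription factor of G2/M genes, was at 100.3, 104 and 103 in VC and 101, 99.5 and 97.3 in control, overlapping groups that differed by 0.043 on the log2 scale (SE 0.0330, limma adjusted p = 0.542).

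All 6 spindle genes had log2 fold changes below 0 as deposited, and 4 of them were above 0 with equal totals. As deposited, 2 had groups that did not overlap, with all VC values lower, an order seen in 11.6% of all genes. Aurka, the centrosomal Aurora kinase, was at 125, 121 and 126 in VC and 139, 132 and 137 in control (log2 fold change -0.130, SE 0.0361, limma adjusted p = 0.149). Tpx2, which activates Aurora A on spindle microtubules, was at 146, 148 and 148 in VC and 161, 153 and 156 in control (log2 fold change -0.086, limma adjusted p = 0.243). In both, every VC library was below every control library. Kif11, the kinesin that pushes spindle poles apart, was at 54.7, 56.9 and 57.4 in VC and 58.6, 58.6 and 52.2 in control, at -0.002 on the log2 scale (SE 0.0542, limma adjusted p = 0.992). Kif2c, a kinesin that depolymerizes microtubules, Nusap1, a microtubule bundling protein, and Hmmr, a spindle-associated protein, had log2 fold changes of -0.007, -0.003 and -0.047 with overlapping groups. Without control replicate 3 Hmmr was at -0.105 and Kif11 at -0.057. The class median was -0.027, and it was 0.044 with equal totals and -0.072 without control replicate 3.

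Kinetochore and passenger complex genes, 12 in all, had a class median of -0.087, and of -0.016 with equal totals. As deposited, 10 were below 0 and 7 had all VC values below the control values, against 46.3% and 11.6% of all genes. With equal totals only 3 of all members had that order. Cenpa, the histone H3 variant that marks the centromere, was at 68.5, 68.5 and 67.4 in VC and 74.4, 77.4 and 76.5 in control. Its values barely varied within a group and did not overlap between groups, which differed by -0.158 on the log2 scale (SE 0.0330, unadjusted p = 0.00204, limma adjusted p = 0.0905). The difference was -0.087 with equal totals (limma adjusted p = 0.243), and between -0.174 and -0.146 when 1 library was left out. Ndc80, the microtubule-binding arm of the outer kinetochore, was at 23.9, 24.2 and 24.3 in VC and 25.7, 26.2 and 27.8 in control (log2 fold change -0.135, limma adjusted p = 0.202). Its partner Nuf2 was at 30.6, 29.998 and 30.8 in VC and 32.3, 30.9 and 33.5 in control (log2 fold change -0.080, limma adjusted p = 0.399).

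The 3 members that belong to the chromosomal passenger complex had close log2 fold changes. Aurkb, its kinase, was at 71.4, 72.5 and 72.5 in VC and 74.2, 77.8 and 81.1 in control (log2 fold change -0.105, limma adjusted p = 0.261). Birc5, survivin, had a log2 fold change of -0.10 and Incenp, the scaffold, one of -0.109, with limma adjusted p of 0.292 and 0.236, and in all 3 genes each VC value was below each control value. With equal totals Aurkb, Birc5 and Incenp were at -0.034, -0.028 and -0.037. Cdca8, a further subunit of the complex that is not a member here, had -0.042 with overlapping groups (limma adjusted p = 0.707). The spindle checkpoint genes did not move as one: Bub1b had -0.093, Ttk, the kinase MPS1, -0.053, Mad2l1 -0.023 and Bub1, a checkpoint kinase, 0.054, none past the threshold. Bub1 was at 86.4, 88.1 and 88.4 in VC and 86.9, 84.0 and 82.3 in control, so the groups overlapped. Cenpf, a large kinetochore protein, was at 26.6, 29.5 and 28.7 in VC and 28.4, 27.2 and 22.4 in control, and its log2 difference of 0.123 (SE 0.0909, limma adjusted p = 0.527) became 0.024 without control replicate 3. Cenpe, a kinetochore kinesin, had a log2 fold change of -0.045, which became -0.141 without that library (limma adjusted p = 0.148).

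All 6 cytokinesis genes had log2 fold changes below 0, with a median of -0.060 that turned to 0.012 with equal totals, and 0 were called. Kif23, the motor of centralspindlin, was at 43.3, 45.9 and 44.4 in VC and 47.5, 48.6 and 46.8 in control, groups that did not overlap (log2 fold change -0.096, SE 0.0387, limma adjusted p = 0.270). Its partner Racgap1 was at 106, 107 and 106 in VC and 109, 115 and 116 in control (log2 fold change -0.085, limma adjusted p = 0.287). Ect2, the exchange factor for RhoA that centralspindlin recruits, was at 109, 108 and 109 in VC and 115, 111 and 104 in control, with overlapping groups (log2 fold change -0.019, SE 0.0434, limma adjusted p = 0.857). Kif20a, a midzone kinesin, had -0.061, Prc1, which bundles midzone microtubules, -0.029 and Anln, the contractile ring scaffold anillin, -0.058.

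The 2 chromosome genes, the usual markers of proliferation, did not separate the groups. Mki67, which coats mitotic chromosomes as Ki-67, was at 134, 138 and 138 in VC and 150.4, 150.2 and 115 in control. Controls 1 and 2 lay above all VC values and control 3 below them, so its log2 difference of -0.006 (SE 0.103, limma adjusted p = 0.985) became -0.135 without control replicate 3 (limma adjusted p = 0.0903). Top2a was at 188, 193 and 189 in VC and 192, 197 and 176 in control, with the same low control 3 (log2 fold change 0.013, SE 0.0480, limma adjusted p = 0.920, and -0.036 without control replicate 3).

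The low values of control replicate 3 went with exon length. Its log2 difference from the mean of controls 1 and 2 was -0.388 for Mki67 (10061 exon bases), -0.298 for Cenpf (15433), -0.286 for Cenpe (8620) and -0.161 for Anln (9063), but 0.179 for Ccnb2 (1531). Across the 36 members this difference correlated with exon length at a Spearman's rho of -0.566, at -0.329 over all 13772 tested genes with a length, and at -0.601 over the 5478 of them in the members' range of level; genes share the library and are not replicates, so this is a description. For VC replicates 1, 2 and 3, each against the other VC libraries, the rho over members was -0.193, 0.349 and -0.07. The members' own log2 fold changes went with length at a rho of 0.301 with all libraries and -0.161 without control replicate 3. Without that library 24 members had all VC values below the control values, against 17.3% of all genes, and the member median was -0.072. Leaving out a library can only keep or raise a count of groups that do not overlap. The median SD of log2 values over members was 0.0314 in VC and 0.0562 in control, and 27 of 36 members varied more in control. Over all genes tested it was 0.0693 in VC and 0.0972 in control. For the members with controls 1 and 2 only it was 0.0353 in control. That SD rests on 2 values per gene and is not directly comparable with those from 3.

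**Figure D4:**
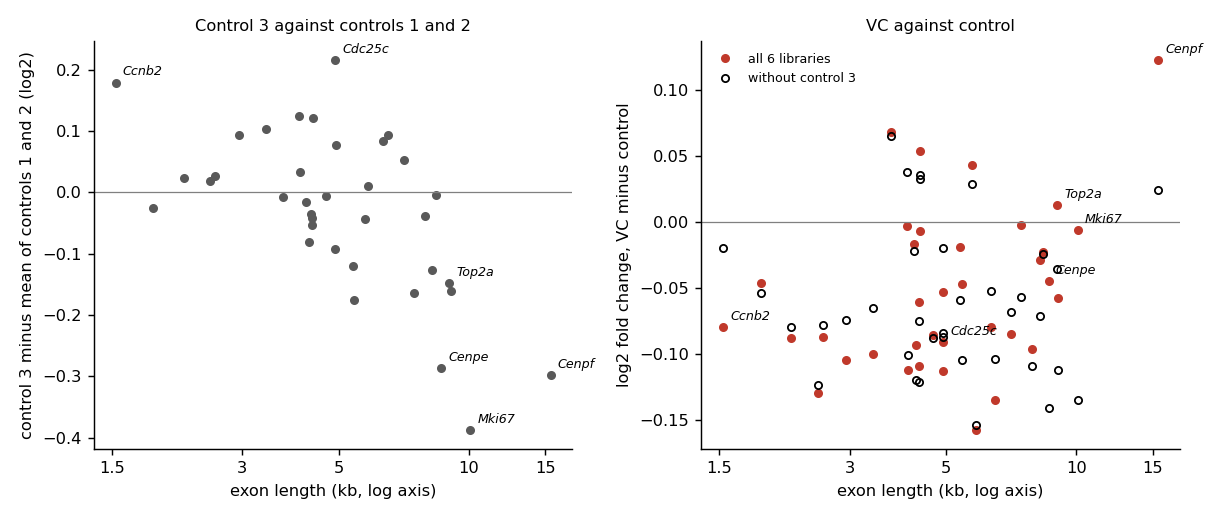
Left, log2 difference of control replicate 3 from the mean of controls 1 and 2 for each member against exon length in kb (log axis). Right, log2 fold change of VC against control for the same genes, with all 6 libraries (filled) and without control replicate 3 (open); the left panel shows lower values in long genes, down to -0.388 for Mki67.

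Of the wider mitotic machinery, none of the genes on 7 further lists passed the adjusted threshold by limma. Among 40 other kinetochore and centromere genes 24 were below 0, with a median log2 fold change of -0.019, and 1, Bub3 of the spindle checkpoint, had an unadjusted p under 0.05 (log2 fold change -0.107); Mad2l1bp, which helps take the checkpoint apart, had -0.130 (limma adjusted p = 0.318). Of 34 other spindle genes 16 were below 0 (median 0.013), and Haus8 and Haus1, subunits of the augmin complex that branches spindle microtubules, had -0.221 and -0.150 with limma adjusted p of 0.150 and 0.281. The anaphase-promoting complex and its regulators had a median of -0.040 over 17 genes. Its scaffold subunit Anapc1 stood at 80.5 ± 1.09 in VC and 72.4 ± 5.80 in control, while Cdc16, another subunit, stood at 135 ± 6.09 in VC and 144 ± 3.25 in control (SD, n = 3 each). Fzr1, the activator CDH1 used after mitosis, was at 30.7 ± 3.77 in VC and 33.6 ± 1.78 in control, and these 3 genes did not pass (limma adjusted p of 0.258, 0.340 and 0.506). The 21 condensin, cohesin and separase genes had a median of 0.014, with the condensin subunit Ncaph at -0.134 (limma adjusted p = 0.150) and securin, Pttg1, at -0.102 (limma adjusted p = 0.319).

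Genes that brake or license the G2/M step held the values nearest to the threshold. Cdkn1a, the p21 inhibitor of cyclin-dependent kinases and a p53 target, was at 33.9, 36.5 and 34.8 in VC and 27.9, 29.2 and 28.9 in control. The groups were far apart relative to their spread, and the log2 fold change was 0.281 (SE 0.0442, unadjusted p = 0.000405, limma adjusted p = 0.0539), just short of the threshold. It passed in 4 alternatives, at adjusted p of 0.0294 with equal totals, 0.0379 with a filter of 5, 0.0342 with library weights and 0.00886 by limma-voom on recovered reads, and in no fit that left out a library (adjusted p of 0.0722 to 0.219). Mybl2, B-MYB, the partner of MuvB that turns on G2/M genes, was at 43.9, 47.0 and 44.6 in VC and 51.5, 52.6 and 52.4 in control. Its log2 fold change was -0.205 (SE 0.0394, limma adjusted p = 0.0756), with groups that did not overlap; it passed by limma-voom alone, at 0.0425.

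Gadd45a, a stress-induced brake on CDK1, was at 25.6, 27.6 and 26.8 in VC and 24.1, 22.1 and 23.8 in control (log2 fold change 0.187, limma adjusted p = 0.150). Wee1, the kinase that puts the inhibitory phosphate on CDK1, was at 20.2, 18.8 and 20.3 in VC and 24.9, 21.8 and 19.7 in control, with overlapping groups (limma adjusted p = 0.421). Plk2, a polo-like kinase and p53 target, had -0.152 (limma adjusted p = 0.111). Over the 16 tested genes of this brake list 5 were higher and 2 lower at an unadjusted p under 0.05, with a median of 0.010. Cks2, a small subunit of cyclin-dependent kinase complexes on the mitotic entry list, was at 204 ± 7.37 in VC and 231 ± 12.6 in control (log2 fold change -0.174, limma adjusted p = 0.154), and Arpp19, an inhibitor of the phosphatase PP2A on the same list, had -0.10. Tfdp1, the E2F dimer partner on the list of DREAM and B-MYB subunits, was at 269 ± 4.49 in VC and 287 ± 2.94 in control (limma adjusted p = 0.197), and the 12 tested genes of that list had a median of -0.008.

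**Figure D5:**
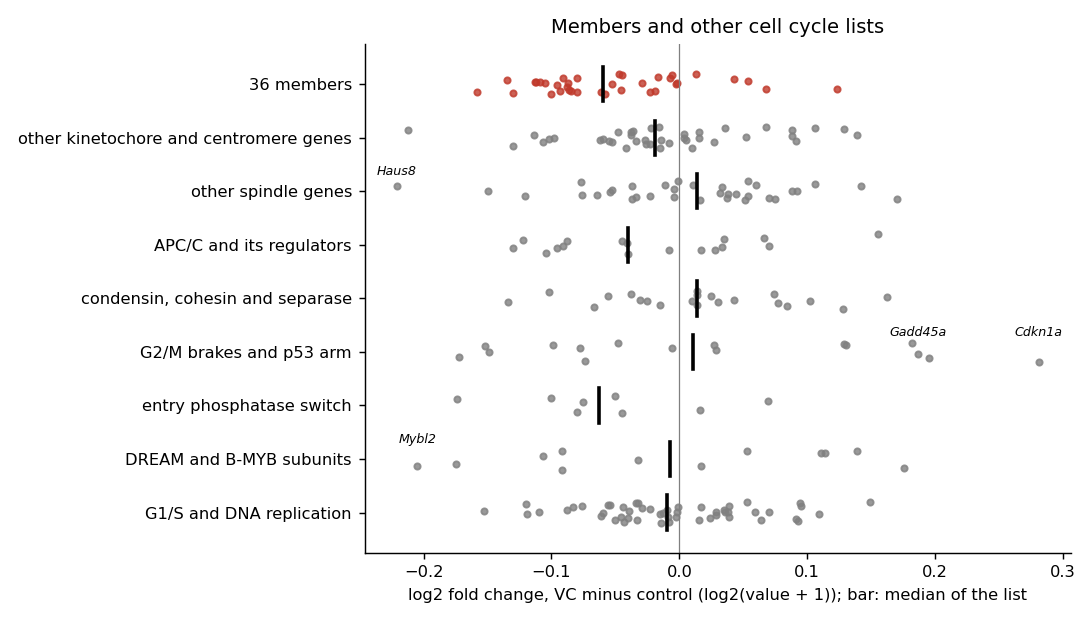
Log2 fold change, VC minus control, of each tested gene in the member list and 8 other cell cycle lists, with the list median as a bar. The member median is -0.060 and that of the G1/S and DNA replication list -0.010, and Cdkn1a at 0.281 lies farthest to the right.

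G1/S and DNA replication genes, the preceding step of the cycle, served as the nearest comparison. Of 51 tested, 31 were below 0, with a median log2 fold change of -0.010, 0 called and 3 lower at an unadjusted p under 0.05, and in 6 all VC values lay below the control values and in 5 above them, where 11.6% and 13.9% of all genes did. Mcm7, a subunit of the replicative helicase, had -0.119 and Lig1, the replicative ligase, -0.083, with limma adjusted p of 0.168 and 0.256. The difference between the mitotic and the replication list was not tested. Among the members with a promoter window, the 21 with TTTGAA had a median log2 fold change of -0.058 and the 8 without it one of -0.020, within ranges that overlapped.

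Some values carry limits of counting. The labels do not say whether libraries kept strand, and exons of several members overlap genes on the opposite strand, over 29.3% of Kif20a (with Cdc23), 22.8% of Ube2c (with Tnnc2) and 12.5% of Ccna2 (with Exosc9). Ccnb1 shares stretches at 95% identity or more with 4 pseudogenes, of which Ccnb1-ps was at a mean of 5.75 and Gm12856 at 1.77, so reads of these copies and of Ccnb1 may have been exchanged. The same holds for 303 bases that Ndc80 shares with 2700099C18Rik, at a mean of 9.05, and 488 bases that Racgap1 shares with AC148020.1, at 2.05.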

How the data were processed

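RNA was taken with Trizol and sequenced from TruSeq libraries, and alignment used HISAT2 and build GRCm39, per the labels' protocols and the submitters' processing notes. Counter and annotation: not given in the sources used here. Each deposited signal is a transcripts-per-million-like value times 1 factor per library, TMM by the table's name. Columns were matched to samples by group letter and number. Symbols and exon lengths came from GENCODE M21 (GRCm38), which also gave the exon overlaps between genes. Value times length, divided by a step fitted for each library, gave whole reads within 0.1 for 98.77% to 98.93% of the values checked. Only values of up to 1000 reads were checked, and most members lay above that.

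Genes at 1 or more in at least 3 libraries were tested on log2(value + 1) with limma 3.58.1 (R 4.3.3), empirical Bayes with trend, two-sided. Adjustment was by Benjamini-Hochberg over all 13972 genes, with no block and no covariate. The script was checked on simulated data with larger changes than those of the members, so power for changes of their size was not tested. Members, lists and tests were chosen with earlier results of these data known. Named genes were all members, with Cdca8 added as a further subunit of the passenger complex. From each other list they were those called and the 2 with the smallest p, and always Cdkn1a, Wee1, Gadd45a, Mybl2, Fzr1 and Pttg1. Near-identical copies were sought with BLAST 2.17.0 among GENCODE transcripts, at 200 bases or more. Alternatives changed pseudocount, filter, scaling, trend, weights, block and libraries.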

Additional observations from a re-analysis of the deposited data

How the results depend on the processing

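No member was called in any of 17 alternatives. The count of genes called over the whole table, 96 as reported, was 183 with a filter of 5, 30 with no filter, 217 with equal totals (182 higher), 6 without the trend, 254 with library weights, 604 by limma-voom on recovered reads (458 higher) and 0 with the replicate block, and ran from 0 to 82 when 1 library was left out. The replicate numbers did not pair the libraries: deviations from group means correlated at -0.019, -0.011 and 0.005 for numbers 1, 2 and 3. The member median kept its sign except with equal totals, where it was 0.012 and the spindle and cytokinesis medians were 0.044 and 0.012. It ran from -0.074 to -0.047 when 1 library was left out. Counts of members with groups that do not overlap were 3 below and 4 above with equal totals, where 4.59% and 25.8% of all genes were. With 1 library left out they were 17 to 24 below and 1 to 4 above. Leaving out a library can only keep or add such genes, so these ranges could not fall under the counts with all libraries. Without control replicate 3 the shares of all genes were 17.3% below and 19.9% above. For the other libraries left out these shares were not counted.

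Many members with small log2 fold changes, though not all, changed sign, whatever their level. Foxm1 and Bub1, at 0.115 and 0.126 with equal totals, did not change sign there. Values are given for those that did. With equal totals log2 fold changes were 0.055 for Ccnb1, 0.026 for Cdc20, 0.069 for Kif11, 0.063 for Kif2c, 0.025 for Hmmr, 0.067 for Nusap1, 0.048 for Mad2l1, 0.017 for Ttk, 0.026 for Cenpe, 0.011 for Kif20a, 0.042 for Prc1, 0.014 for Anln, 0.053 for Ect2 and 0.066 for Mki67. After quantile normalization they were 0.020 for Ccnb1, 0.024 for Cdc20, 0.019 for Ect2 and 0.033 for Mki67. With library weights they were 0.024 for Kif2c, 0.028 for Nusap1 and -0.020 for Top2a. By limma-voom they were 0.004 for Ccnb1, 0.020 for Kif11, 0.014 for Kif2c, 0.018 for Nusap1, 0.003 for Ect2 and 0.016 for Mki67. With 1 library left out the ranges were -0.038 to 0.004 for Ccnb1, -0.057 to 0.026 for Kif11, -0.044 to 0.039 for Kif2c, -0.051 to 0.038 for Nusap1, -0.044 to 0.005 for Mad2l1, -0.141 to 0.006 for Cenpe, -0.071 to 0.003 for Prc1, -0.059 to 0.014 for Ect2, -0.135 to 0.059 for Mki67 and -0.036 to 0.047 for Top2a. Beyond the scaling itself, the cause of these changes was not tested. The fewest recovered reads of a member in a library were 691, for Cdc25c; what share of the spread counting error makes up was not tested.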
